A study of Mus musculus with 6 samples.

Results

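The nuclear genes of oxidative phosphorylation were followed, complex by complex, in messenger RNA of inguinal white adipose tissue, a subcutaneous fat depot, from mice whose adipocytes had or lacked Igf1r, the gene of the receptor for insulin-like growth factor 1. The members are 49 of the 14861 genes of the deposited table, matched by gene symbol to a list of named subunits. They comprise 18 genes of complex I (Nduf genes), 4 of complex II (Sdh genes), 7 of complex III (Uqcr genes and Cyc1), the cytochrome c gene Cycs, 10 of complex IV (Cox genes) and 9 of complex V (Atp5 genes). All 49 were found.

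Oxidative phosphorylation is carried out in the inner mitochondrial membrane. Complexes I and II pass electrons from NADH and succinate to ubiquinone, complex III passes them on to cytochrome c, and complex IV passes them to oxygen. Complexes I, III and IV pump protons out of the matrix, and complex V, the ATP synthase, uses the return of the protons to make ATP. White adipocytes hold fewer mitochondria than brown adipocytes or muscle fibres, and skeletal muscle is among the tissues richest in these subunits. The 13 subunits encoded by mitochondrial DNA are not analysed here.

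The parent strains were B6;129-Igf1rtm2Arge/J, with a floxed Igf1r gene, and B6; FVB-Tg (Adipoq-Cre)1Evdr/J, whose Cre recombinase is driven by the promoter of adiponectin, a gene of adipocytes. The 3 mice of the group AdIGF1RKO lacked Igf1r in adipocytes, and 3 littermates with the floxed gene, called Flox, were the controls. Both groups ate a diet that drew 10% of its calories from fat, over a period of 24 weeks, had been fasted overnight and were anesthetized with Avertin. Vessels, immune cells and other cells outside the adipocyte lineage keep Igf1r in this model. Age and sex are not stated in the labels. The labels speak of mice but do not say that each library came from 1 animal, so p-values measure the spread between these libraries.

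Each library held between 60617147 and 70695527 reads assigned to genes. Values are given as scaled CPM, the reads of a gene after median-ratio scaling, per 1000000 reads of a library of geometric mean size. Differences are on the log2(scaled CPM + 1) scale, AdIGF1RKO minus Flox, and come from limma with Benjamini-Hochberg adjustment over 12993 genes. The targeted gene Igf1r was at 6.44, 6.47 and 5.86 scaled CPM in Flox 1 to 3 and at 6.11, 5.27 and 4.85 in AdIGF1RKO 1 to 3. Its log2 difference of -0.18 ± 0.12 (SE) had an adjusted p of 0.998, and the groups overlapped. Markers of white adipocytes (15 of 15 matched) took 5.40% to 8.70% of reads. Skeletal muscle markers (29 of 30 matched, with none at 0) took 1.06%, 0.134% and 14.6% of reads in Flox 1 to 3 and 0.0715%, 0.333% and 5.36% in AdIGF1RKO 1 to 3. Flox 3 and AdIGF1RKO 3 therefore stood apart as muscle-rich libraries, and results are given with and without them.

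No oxidative phosphorylation gene passed the test between the groups. Each of the 49 members had a lower mean log2 value in AdIGF1RKO than in Flox, by a median of 0.19 on the log2 scale, so that the median ratio of group means was 0.859. The confidence interval of each of these differences included 0. The number of members with an adjusted p under 0.05 was 0, where 0% of all genes tested were called, and every member had an adjusted p of 0.998. The number with an unadjusted p under 0.05 and a lower level was also 0, against 1.13% of all genes (2.96% in either direction), and edgeR and DESeq2 likewise called 0 members (0% and 0.177% of all genes). No member had groups without overlap, where 3.86% of all genes had every AdIGF1RKO library below every Flox library.

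A negative sign in 49 of 49 members stood beside 55.2% of all genes, whose median difference was -0.02. The members share the same 6 libraries, so their signs are not separate observations. The median difference was -0.20 in complex I, -0.16 in complex II, -0.22 in complex III, -0.17 for cytochrome c, -0.18 in complex IV and -0.20 in complex V. The complexes thus differed little in this median. Under scaling to equal sums, where the median of all genes moved to 0.09, 40 of 49 members stayed negative and Ndufa10, Ndufb3, Ndufb10, Cox5b, Cox7a2, Cox8a, Atp5f1b, Atp5pb and Atp5mc3 turned positive. Of all genes 27.7% were negative under that scaling. With the values as deposited all 49 were negative, beside 85.2% of all genes with a median of -0.17. In bulk tissue, fewer cells of a type and less RNA per cell cannot be told apart.

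**Figure D1:**
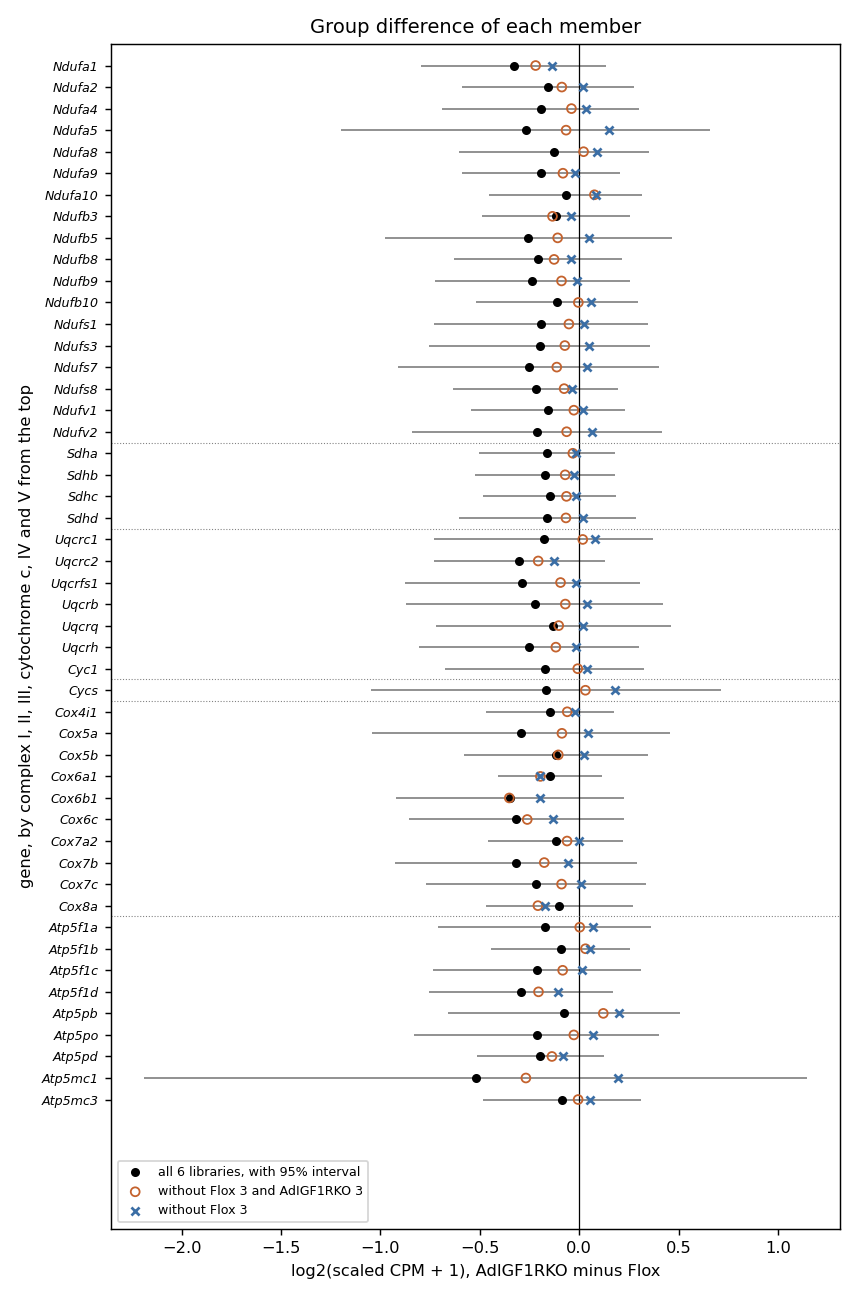
Log2 difference between AdIGF1RKO and Flox for each of the 49 members, listed by complex, with filled points and 95% intervals for all 6 libraries, open circles for the fit without both muscle-rich libraries and crosses for the fit without Flox 3. Every interval crosses 0; 21 of the 49 crosses lie left of 0.

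The shared direction was lost when Flox 3 alone was left out, and was kept by most members when both muscle-rich libraries were left out or the muscle signal was a covariate. Leaving out these libraries did not make the groups even in muscle RNA, as given below. Flox 3 had the highest value of the 6 libraries for 47 of 49 members, whereas 30.8% of all genes were highest there. The exceptions were the complex IV genes Cox6a1, highest in Flox 2, and Cox8a, highest in AdIGF1RKO 2. AdIGF1RKO 3, the other muscle-rich library, was the highest of its group for 45 of 49 members (31.4% of all genes). AdIGF1RKO 1, the library with the smallest share of muscle reads, was the lowest of the 6 for 43 of 49 members (18.1% of all genes). The 6 others, Ndufa10, Uqcrc1, Cyc1, Atp5f1a, Atp5f1b and Atp5pb, were lowest in Flox 2, which had the next smallest share. Across all members the median log2 deviation from the mean of the 6 libraries was -0.04, -0.15 and 0.52 in Flox 1 to 3 and -0.31, -0.07 and 0.07 in AdIGF1RKO 1 to 3. The deviation of the 29 muscle markers, by their median, was 0.45, -2.47, 4.34, -3.60, -1.30 and 2.74 in the same order. All 29 were lower in AdIGF1RKO by their mean, with a median of -1.46. The part of muscle RNA in the members' differences was not tested.

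**Figure D2:**
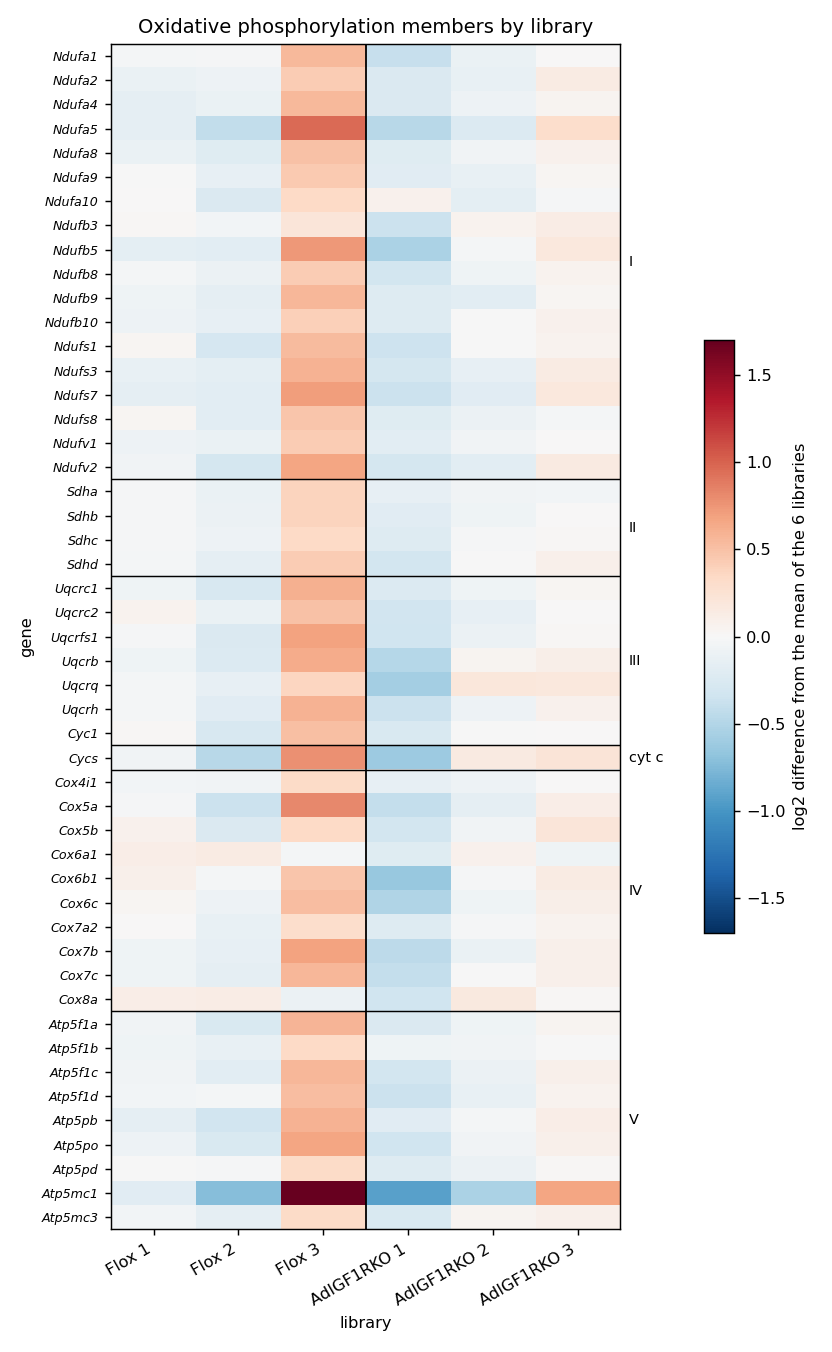
Log2 deviation of each member from its mean over the 6 libraries, with genes in rows by complex, libraries in columns and colour from blue (below the mean) to red (above). The Flox 3 column is red for nearly every gene, Cox6a1 and Cox8a being exceptions, and Atp5mc1 has the deepest red.

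Without Flox 3 the median difference of the members was 0.02 and 21 of 49 were negative, beside 49.5% of all genes. Leaving out AdIGF1RKO 1 gave a median of -0.10 with 42 negative (55.3% of all genes). Without both muscle-rich libraries, which leaves 2 libraries a group, the median was -0.08 and 42 of 49 were negative, beside 50.8% of all genes. All 29 muscle markers stayed negative there, with a median of -1.40, whereas 6 of 29 were negative without Flox 3 (median 0.32). Muscle RNA was thus uneven between the groups in either case. The members that turned positive without both were Ndufa8, Ndufa10, Uqcrc1, Cycs, Atp5f1a, Atp5f1b and Atp5pb. In that reduced set 9 members had both AdIGF1RKO libraries below both Flox libraries, where 15.0% of all genes did. They were Ndufa1, Ndufa2, Ndufb9, Ndufs7, Uqcrc2, Cox4i1, Cox6a1, Atp5f1d and Atp5pd. With the summed muscle signal as a covariate the median was -0.09 and 47 of 49 were negative (54.5% of all genes), all but Cycs and Atp5pb. With array quality weights, which let limma weigh each library by its fit, the median was -0.03 and 33 of 49 were negative (50.2% of all genes). None of these fits called a member.

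**Figure D3:**
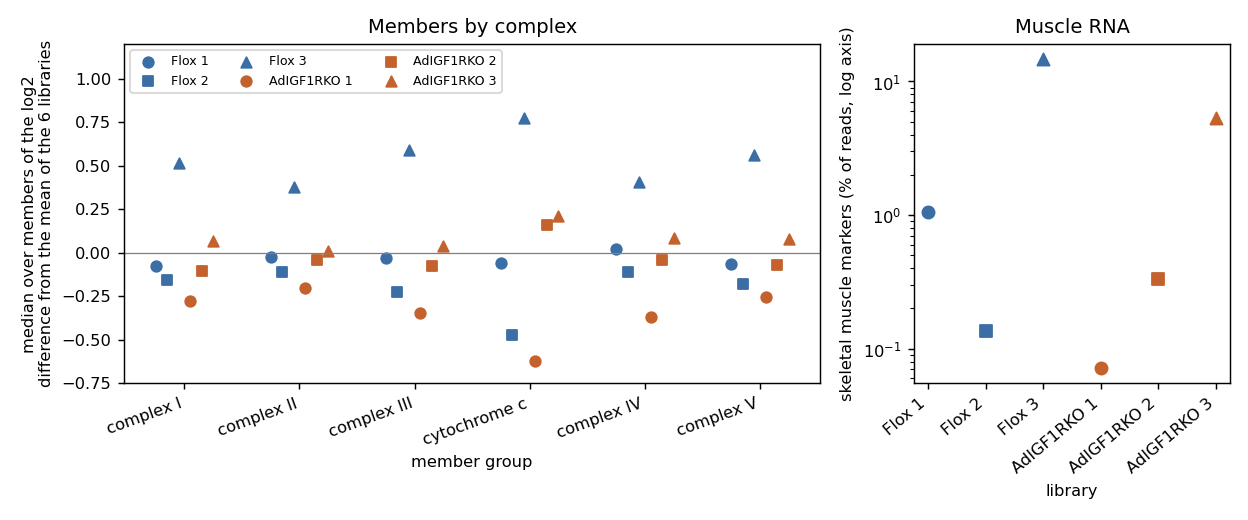
Left, the median over each complex's members of the log2 deviation from the mean of the 6 libraries, with blue points for Flox and orange points for AdIGF1RKO. Right, the percent of reads in skeletal muscle markers in each library on a log axis; Flox 3, with 14.6%, is also the highest point of every complex on the left.

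The libraries carry the numbers 1 to 3 in both groups. Between the libraries numbered 1, 48 of 49 members were lower in AdIGF1RKO with a median of -0.25, and 52.3% of all genes were lower. Between those numbered 2, 9 of 49 were lower and the median was 0.08 (48.1% of all genes lower). Between those numbered 3, 48 of 49 were lower with a median of -0.47 (54.8% of all genes lower). The AdIGF1RKO library had the smaller share of muscle reads at numbers 1 and 3 and the larger share at number 2. Cytochrome c had the widest swing outside the c-ring gene Atp5mc1, from -0.56 at number 1 to 0.63 at number 2. With the number as a block, Ndufa1 and Atp5f1d had an unadjusted limma p under 0.05, so 2 members did so rather than 0, where 2.40% of all genes did with a lower level and 4.48% in either direction. Both were lower in AdIGF1RKO at all 3 numbers. The smallest adjusted p of a member with the block was 0.914.

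**Figure D4:**
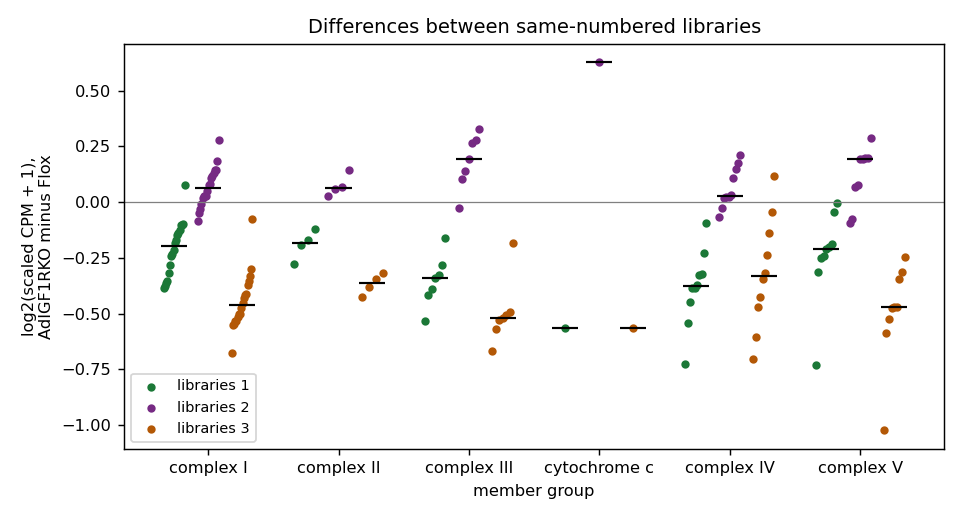
Log2 difference of each member between the AdIGF1RKO and the Flox library with the same number, by complex, with 1 point per gene, colours for the numbers 1 to 3 and bars at the median. Points for number 2 lie mostly above 0 (40 of 49) and those for numbers 1 and 3 lie below it for 48 members each.

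Complex I, the NADH dehydrogenase that feeds most electrons into the chain, was highest in Flox 3 for all 18 members. Ndufa1, a small membrane subunit needed for the assembly of the complex, was at 641.5, 648.6 and 962 scaled CPM in Flox 1 to 3 and at 502, 611 and 659 in AdIGF1RKO 1 to 3. AdIGF1RKO 3, the highest of its group, exceeded Flox 1 and Flox 2, so the groups overlapped. The group means were 751 ± 183 and 591 ± 80.1 (SD, n = 3 each). The log2 difference was -0.33 ± 0.19 (SE), with a 95% interval from -0.79 to 0.14, and its p was the smallest of any member. Without both muscle-rich libraries it was -0.22.

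The other members of complex I with the smallest p were Ndufs8, an iron-sulfur subunit next to the ubiquinone site, and Ndufb8 and Ndufb9, accessory subunits of the membrane arm. Ndufs8 was at 163, 141 and 222 scaled CPM in Flox and at 138, 149 and 156 in AdIGF1RKO, a log2 difference of -0.22 ± 0.17 (SE). Ndufb8 was at 619.8, 591 and 856 in Flox and at 509.9, 603 and 661.5 in AdIGF1RKO, a difference of -0.21 ± 0.18. Ndufb9 was at 511, 483 and 793 in Flox and at 461, 472 and 549 in AdIGF1RKO, a difference of -0.24 ± 0.20. In all 3 genes Flox 3 was well above the other 5 libraries. Without both muscle-rich libraries their differences were -0.08, -0.13 and -0.09.

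Ndufa10, an accessory subunit of the membrane arm, had the smallest difference of the complex at -0.07 ± 0.16 (SE). It was at 170.2, 144 and 215 scaled CPM in Flox and at 179.6, 152 and 168 in AdIGF1RKO, and AdIGF1RKO 1 was its second highest library. Ndufa4, with the highest scaled CPM of the complex I genes (a value not corrected for length), was at 813, 833 and 1316 in Flox and 757, 848 and 929 in AdIGF1RKO, a difference of -0.19 ± 0.21. Ndufa4 is named for complex I, and its protein is now assigned to complex IV. The widest spread in complex I was that of Ndufa5, an accessory subunit of the matrix arm. It was at 276, 229 and 599.5 scaled CPM in Flox and at 221, 260.4 and 375 in AdIGF1RKO, and Flox 3 was 2.38 times the mean of Flox 1 and 2. The median of that ratio over complex I was 1.53.

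Complex II, succinate dehydrogenase, is also an enzyme of the citrate cycle and is built from nuclear genes alone. Its 4 genes had log2 differences from -0.17 to -0.15, the narrowest range of the 5 complexes. Sdha, the flavoprotein that oxidizes succinate, was at 427, 397.5 and 561 scaled CPM in Flox and at 392.5, 414 and 418 in AdIGF1RKO. Its means were 462 ± 87.2 and 408 ± 13.6 (SD, n = 3 each), and its difference was -0.16 ± 0.14 (SE). Sdhb, the iron-sulfur subunit, was at 286, 270.4 and 379 in Flox and at 254, 276 and 291 in AdIGF1RKO (difference -0.17 ± 0.15, SE). The 3 AdIGF1RKO libraries were close together in both genes, and in Flox only Flox 3 lay far off.

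The membrane anchors of complex II gave the same picture. Sdhc was at 227, 216 and 291 scaled CPM in Flox and at 198, 226 and 233 in AdIGF1RKO, and Sdhd at 225, 208 and 313 against 186, 229.6 and 246. Their differences were -0.15 ± 0.14 and -0.16 ± 0.19 (SE). In complex II the median ratio of Flox 3 to the mean of Flox 1 and 2 was 1.36. Without both muscle-rich libraries its median difference was -0.07, and each of the 4 stayed negative.

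Complex III, the cytochrome bc1 complex, had the most negative median of the complexes. Uqcrc2, a core protein of its matrix side, was at 298, 265.5 and 406 scaled CPM in Flox and at 228, 261 and 288 in AdIGF1RKO. Flox 3 was the highest library and AdIGF1RKO 1 the lowest, and AdIGF1RKO 3 lay between Flox 1 and Flox 2. Its means were 323 ± 73.5 and 259 ± 30.3 (SD, n = 3 each), and its log2 difference was -0.30 ± 0.18 (SE). Without both muscle-rich libraries it was -0.21.

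Uqcrfs1, the Rieske iron-sulfur protein, was at 265.4, 226 and 431 scaled CPM in Flox and at 211, 249.8 and 271 in AdIGF1RKO (difference -0.29 ± 0.25, SE). Uqcrh, the hinge protein that binds cytochrome c1, with the highest uncorrected scaled CPM of the complex, was at 1192, 1067 and 1836 in Flox and at 942, 1147 and 1281 in AdIGF1RKO (difference -0.25 ± 0.23). Cyc1, cytochrome c1 itself, was at 209, 170.0 and 295 in Flox and at 172, 205 and 207 in AdIGF1RKO (difference -0.17 ± 0.21). In each of these 3 genes AdIGF1RKO 2 and 3 lay above Flox 2. Uqcrq, a small subunit near the ubiquinone site, had the smallest difference of the complex at -0.13 ± 0.25 (SE). It was at 398, 372 and 527 in Flox and at 274.5, 468 and 464 in AdIGF1RKO, where AdIGF1RKO 1 alone was low.

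Cytochrome c, the mobile carrier between complexes III and IV, varied widely within both groups. Cycs was at 97.2, 72.9 and 174 scaled CPM in Flox and at 65.4, 113 and 118 in AdIGF1RKO. Its low values were those of Flox 2 and AdIGF1RKO 1, and Flox 3 was 2.05 times the mean of Flox 1 and 2. The log2 difference was -0.17 ± 0.37 (SE) and turned to 0.03 without both muscle-rich libraries. Cycs was also the member with the fewest reads, 5047 in its lowest library.

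Complex IV, cytochrome c oxidase, held the 2 members that were not highest in Flox 3. Cox6b1, the subunit on the side that faces cytochrome c, was at 1559, 1428 and 2042 scaled CPM in Flox and at 943, 1449.6 and 1610.1 in AdIGF1RKO. AdIGF1RKO 1 was by far its lowest library and the 2 other AdIGF1RKO values lay within the range of Flox. Its means were 1676 ± 323 and 1334 ± 348 (SD, n = 3 each), and its difference was -0.35 ± 0.24 (SE). Without both muscle-rich libraries it was again -0.35. Cox6c, a small membrane subunit with the highest uncorrected scaled CPM of the complex, was at 1772, 1619 and 2489.7 in Flox and at 1215, 1643 and 1855 in AdIGF1RKO (difference -0.32 ± 0.22, SE).

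Cox7b, another small membrane subunit, was at 286, 274 and 486 scaled CPM in Flox and at 221, 278 and 319 in AdIGF1RKO (difference -0.32 ± 0.25, SE). Flox 3 was its highest library, and the difference was -0.05 without it. Cox6a1 and Cox8a, the ubiquitous forms of subunits that have a second form in heart and skeletal muscle, did not follow Flox 3. Cox6a1 was at 831, 843 and 754 in Flox and at 664, 805 and 729.8 in AdIGF1RKO. Its difference of -0.15 ± 0.11 (SE) had the smallest standard error of all members, and it was -0.20 both without Flox 3 and without both muscle-rich libraries. Cox8a was at 1178, 1193 and 1019.6 in Flox and at 864, 1219 and 1105 in AdIGF1RKO, a difference of -0.10 ± 0.15.

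The other members of complex IV lay between these extremes. Cox5a, which binds the matrix side of the complex, was 2.01 times higher in Flox 3 than in the mean of Flox 1 and 2, against a complex median of 1.35. The ratio was 0.901 for Cox6a1 and 0.860 for Cox8a. All 10 complex IV genes were negative without both muscle-rich libraries, with a median of -0.14, against -0.07 in complex I, -0.09 in complex III and -0.03 in complex V. This order of the medians was not tested. AdIGF1RKO 1 was the lowest library for all 10, at a median deviation of -0.37.

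Complex V, the ATP synthase, held both the most negative difference and the largest p of all members. Atp5f1d, the delta subunit of the central stalk, was at 310.5, 314 and 463 scaled CPM in Flox and at 249.5, 294 and 334 in AdIGF1RKO. AdIGF1RKO 1 and 2 lay below every Flox library, and AdIGF1RKO 3 lay above Flox 1 and 2. Its means were 362 ± 86.9 and 292 ± 42.3 (SD, n = 3 each), and its difference was -0.29 ± 0.19 (SE). Atp5pd, a peripheral stalk subunit, was at 945, 939 and 1198 in Flox and at 823, 892 and 964 in AdIGF1RKO. Its difference was -0.20 ± 0.13 (SE), and only AdIGF1RKO 3 reached into the range of Flox.

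Atp5f1c, the gamma subunit that turns inside the catalytic head, was at 742, 687 and 1146 scaled CPM in Flox and at 627, 724 and 825 in AdIGF1RKO (difference -0.21 ± 0.22, SE). Atp5po, the stalk subunit known as the oligomycin sensitivity conferring protein, was at 464, 410.3 and 784.5 in Flox and at 389.9, 470.5 and 522 in AdIGF1RKO (difference -0.21 ± 0.26). In both genes AdIGF1RKO 2 and 3 exceeded Flox 2. Atp5f1b, the catalytic beta subunit with the highest uncorrected scaled CPM of the complex, was at 1555, 1498 and 2069 in Flox and at 1549, 1571 and 1631 in AdIGF1RKO. Its 5 libraries other than Flox 3 lay close together, and its difference was -0.09 ± 0.15. Atp5pb, a peripheral stalk subunit, had the largest p of all members, with a difference of -0.08 ± 0.24 that was 0.12 without both muscle-rich libraries.

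Atp5mc1, one of several genes for the same subunit c of the proton-driven ring, had the widest range of all members. It was at 161, 111.0 and 598 scaled CPM in Flox and at 96.9, 127 and 293 in AdIGF1RKO. Both muscle-rich libraries were high and Flox 3 was 4.39 times the mean of Flox 1 and 2. Its means were 289.9 ± 268 and 172 ± 106 (SD, n = 3 each), and its difference of -0.52 ± 0.69 (SE) was the most negative of the 49. It was 0.20 without Flox 3, -0.27 without both muscle-rich libraries and -0.10 with the muscle covariate. Atp5mc3, a second gene for the same mature subunit, was at 1230.0, 1142 and 1592 in Flox and at 1063, 1311 and 1343 in AdIGF1RKO, a difference of -0.09 ± 0.17. Its AdIGF1RKO 2 and 3 values both lay above Flox 1 and 2, and Flox 3 was again the highest library.

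Several complex IV subunits exist in a ubiquitous form and in a form restricted to heart, skeletal muscle or brown fat. Of the restricted forms, Cox6a2 and Cox7a1 were 16.2 and 11.5 times higher in Flox 3 than in the mean of Flox 1 and 2, above the 4.39 of Atp5mc1, the highest such ratio of the members, and Cox8b was 3.49 times higher. Cox6a2, the heart and skeletal muscle form, was at 79.3, 11.1 and 731 scaled CPM in Flox and at 2.13, 22.0 and 271 in AdIGF1RKO. Per length of transcript it made up 44.9% of Cox6a1 and Cox6a2 together in Flox 3 and 23.8% in AdIGF1RKO 3, and between 0.268% and 7.42% in the other 4 libraries. Cox7a1, the partner of Cox7a2, was at 109.8, 32.6 and 821 in Flox and at 30.7, 75.3 and 304 in AdIGF1RKO. Its share was 67.0% in Flox 3, 47.0% in AdIGF1RKO 3 and 9.74% to 25.0% in the others.

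Cox8b, the partner of Cox8a in muscle and brown fat, was at 557, 289 and 1475 scaled CPM in Flox and at 359, 429.7 and 666 in AdIGF1RKO. It kept a share of 27.0% to 41.9% in the 4 muscle-poor libraries, well above the shares of Cox6a2 and Cox7a1 there. In Flox 3 and AdIGF1RKO 3 the share of Cox8b was 68.8% and 48.0%. Markers of brown and beige adipocytes (10 of 12 matched, Cox8b and Cox7a1 among them) took 0.0872%, 0.0418% and 0.192% of reads in Flox and 0.0524%, 0.0700% and 0.102% in AdIGF1RKO. Without Cox8b and Cox7a1 the sum was 0.0162%, 0.00836% and 0.00898% in Flox and 0.00986%, 0.0165% and 0.00595% in AdIGF1RKO, which was highest in AdIGF1RKO 2 and lowest in AdIGF1RKO 3. The part of brown or beige adipocytes in the values of Cox8b and of the members was not tested. None of these 3 restricted forms passed the test (adjusted p = 0.998 each), their log2 differences being -1.73 ± 1.99, -0.68 ± 1.30 and -0.40 ± 0.58 (SE).

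**Figure D5:**
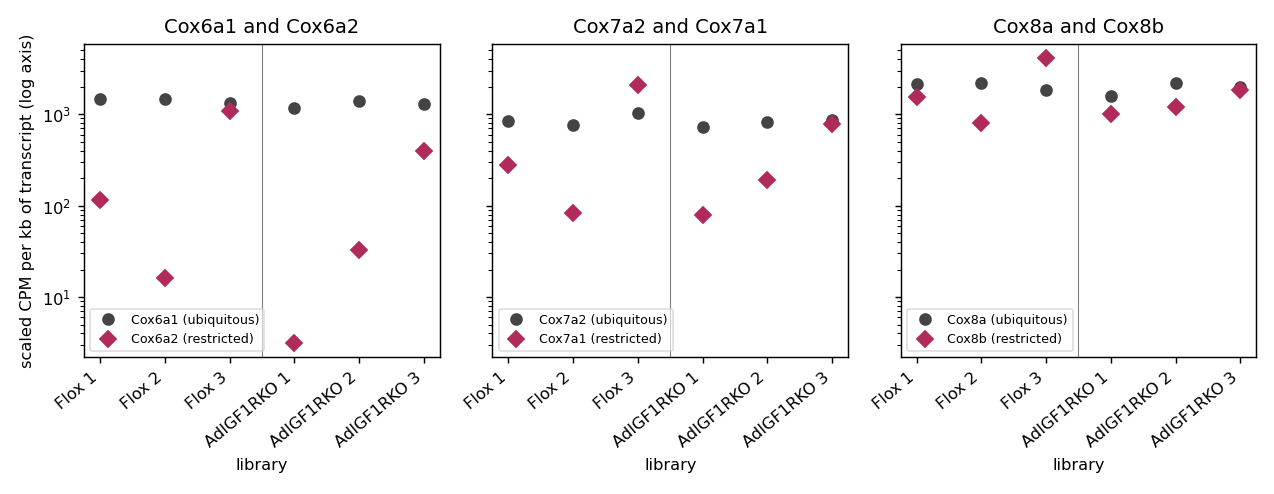
Scaled CPM per kb of transcript, on a log axis, of 3 ubiquitous complex IV subunits (grey circles) and their restricted forms (red diamonds) in the 6 libraries. The grey circles are nearly level, whereas Cox6a2 reaches 44.9% of its pair in Flox 3 from 0.268% in AdIGF1RKO 1.

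Cox4i2, the form of Cox4i1 known from lung and from low oxygen, was the only subunit gene examined whose groups did not overlap. It was at 8.84, 7.85 and 6.92 scaled CPM in Flox and at 13.2, 10.8 and 13.1 in AdIGF1RKO. All 3 AdIGF1RKO libraries were above all 3 Flox libraries, and Flox 3 was the lowest of the 6. The log2 difference was 0.59 ± 0.13 (SE) and it did not pass the test (adjusted p = 0.998 with limma, adjusted p = 0.118 with DESeq2). Of all genes, 8.27% had groups without overlap in either direction, and an exact two-sided permutation test of 3 against 3 libraries cannot go below 0.1. Endothelial markers (12 of 12 matched) were also higher, 11 of 12 by their mean with a median of 0.20, 6 of 12 without overlap and 0 called. Their summed share of reads was 0.0577% to 0.0918% in Flox and 0.0856% to 0.115% in AdIGF1RKO, and their part in the difference of Cox4i2 was not tested. Per length, Cox4i2 made up at most 0.982% of Cox4i1 and Cox4i2 together. Cox6b2, the testis form of Cox6b1, and Ndufa4l2, a relative of Ndufa4 known from low oxygen, had differences of -0.54 ± 0.29 and 0.28 ± 0.16 (SE).

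Promoter sequences from 250 bases before to 50 bases after the start were taken from RefSeq (GRCm38.p6) for the 38 of 49 members that matched, all but Ndufa2, Ndufb9, Ndufs1, Sdhc, Uqcrc2, Uqcrb, Uqcrq, Cyc1, Cox4i1, Cox6c and Atp5f1a. Nuclear respiratory factor 1 (NRF1) is a transcription factor known for binding promoters of nuclear respiratory genes. Its core motif with a free base in the middle, searched on both strands, was present for 10 of 38 members (26.3%), for 11.0% of 10199 tested genes and for 5.19% of all 27025 genes with a promoter. Its exact palindromic core, which is contained in the former, was present for 2 members, Uqcrc1 and Cox6a1 (5.26%), and for 2.25% of tested genes. For each of the 10 members, 30 bases around the first match are printed 5′ to 3′ on the gene's strand, to show how the letters vary, with the motif in capitals.
Ndufa5 (chr6:24527697-24527726, minus strand): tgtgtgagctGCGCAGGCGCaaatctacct
Ndufa8 (chr2:36049349-36049378, minus strand): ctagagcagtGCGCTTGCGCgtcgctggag
Sdha (chr13:74350319-74350348, minus strand): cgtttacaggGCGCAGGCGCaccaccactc
Sdhd (chr9:50603909-50603938, minus strand): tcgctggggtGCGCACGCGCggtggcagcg
Uqcrc1 (chr9:108936643-108936672, plus strand): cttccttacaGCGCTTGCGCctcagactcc
Cox6a1 (chr5:115349101-115349130, minus strand): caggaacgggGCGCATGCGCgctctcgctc
Atp5f1c (chr2:10080430-10080459, minus strand): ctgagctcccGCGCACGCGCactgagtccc
Atp5po (chr16:91931602-91931631, minus strand): gctggcgcgcGCGCGTGCGCtctggcgcca
Atp5pd (chr11:115420041-115420070, minus strand): gaccccgacgGCGCAGGCGCcgcgcccgcc
Atp5mc3 (chr2:73911295-73911324, minus strand): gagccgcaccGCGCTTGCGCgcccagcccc

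The windows come from 2 complex I genes, 2 complex II genes, 1 complex III gene, 1 complex IV gene and 4 complex V genes. Other factors known for respiratory genes gave fewer matches, on either strand. CCGGAAGT, a site of GABPA and other ETS factors, was present for Ndufs3, Uqcrh, Cox8a and Atp5pd (10.5%), beside 8.72% of tested genes. TCAAGGTCA, a site of the estrogen-related receptor ESRRA, was present for Sdhd and Atp5mc3 (5.26%), beside 0.304%. The core motif of YY1 was present for Ndufa9 and Ndufs7 (5.26%), beside 2.33%. A match describes letters in this window and is not a measured site. The 250 bases before the start are shown for 3 members on the same build, with matched letters in capitals. Ndufa1 and Atp5pd are among the 4 members with the smallest p, none of which passed the test. Ndufa1 holds no match and Atp5pd holds an NRF1 and an ETS match. Atp5f1d, also among the 4, holds no match and is not shown. Cox6a1 was chosen after its values were seen and did not follow Flox 3. Cox8a, which did not follow Flox 3 either, holds no NRF1 match. A link between the motifs and the values was not tested.
Ndufa1 (chrX:37191239-37191488, minus strand): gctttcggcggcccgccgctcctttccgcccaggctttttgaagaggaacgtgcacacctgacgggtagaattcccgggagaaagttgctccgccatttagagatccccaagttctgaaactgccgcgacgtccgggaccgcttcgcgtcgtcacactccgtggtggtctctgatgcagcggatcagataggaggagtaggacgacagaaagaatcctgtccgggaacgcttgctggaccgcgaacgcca
Atp5pd (chr11:115419920-115420169, minus strand): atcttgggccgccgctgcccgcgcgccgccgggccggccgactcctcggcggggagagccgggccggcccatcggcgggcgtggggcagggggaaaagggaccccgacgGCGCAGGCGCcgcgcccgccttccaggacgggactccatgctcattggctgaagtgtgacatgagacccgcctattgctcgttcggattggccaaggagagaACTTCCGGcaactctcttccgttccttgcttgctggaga
Cox6a1 (chr5:115348959-115349208, minus strand): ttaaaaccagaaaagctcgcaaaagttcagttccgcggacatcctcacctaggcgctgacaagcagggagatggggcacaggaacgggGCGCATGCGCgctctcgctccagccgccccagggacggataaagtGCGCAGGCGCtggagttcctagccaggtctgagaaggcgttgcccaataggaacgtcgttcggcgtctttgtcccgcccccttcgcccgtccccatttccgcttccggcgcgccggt

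The 32 genes listed as other nuclear subunits had the same sign. Tissue-restricted forms were not among them, and 2 of the 6 tested of those were positive. All 32 had a negative difference, beside 55.2% of all genes, with a median of -0.23. Of the 32, 0 were called and 31 were highest in Flox 3, beside 30.8% of all genes. Without Flox 3, 13 of 32 were negative, without both muscle-rich libraries 26 (median -0.12) and with the muscle covariate 27. The shares of all genes in these fits were 49.5%, 50.8% and 54.5%. By complex, the difference was negative for 20 of 20 further complex I genes (median -0.20), 2 of 2 of complex III (median -0.30), Cox7a2l, a factor of supercomplexes (-0.11), and 9 of 9 of complex V (median -0.25). Atp5mc2, the third c-ring gene, had the smallest p of these, at a difference of -0.54 ± 0.26 (SE). It was at 8.79, 12.4 and 19.0 scaled CPM in Flox and at 8.56, 7.52 and 9.55 in AdIGF1RKO.

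Genes that serve the complexes without being subunits had medians nearer 0. Of 43 assembly factors, 29 were negative with a median of -0.07, beside 55.2% of all genes, and 0 were called. Their direction did not hold without Flox 3, where 11 were negative (median 0.04), beside 49.5% of all genes. Nor did it without both muscle-rich libraries, where 19 were (median 0.01), beside 50.8%. With the muscle covariate 22 were negative, beside 54.5%. With equal sums 17 were (median 0.06), where 27.7% of all genes were negative. Cox14, a factor for complex IV, was at 46.0, 43.2 and 52.7 scaled CPM in Flox and at 36.5, 36.2 and 42.6 in AdIGF1RKO, without overlap (difference -0.29 ± 0.11, SE, adjusted p = 0.998). Sco2, a copper chaperone for complex IV, had a difference of 0.61 ± 0.28. Of 17 tested regulators of mitochondrial biogenesis, 6 were negative with a median of 0.03, beside 55.2% of all genes, and 0 were called.

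The citrate cycle supplies the NADH and succinate that complexes I and II oxidize. A list of 18 genes held genes of the cycle outside complex II, and Pdha1, Pdhb, Dlat and Pcx, whose enzymes bring pyruvate into it. Of the 18, 16 were negative with a median of -0.08, beside 55.2% of all genes, and 0 were called. This direction turned in some fits. Without Flox 3, 3 were negative (median 0.07), beside 49.5% of all genes. Without both muscle-rich libraries 6 were (median 0.04), beside 50.8%, and with the muscle covariate 7, beside 54.5%. With equal sums 8 were negative, where 27.7% of all genes were. Suclg2, a subunit of the succinyl-CoA ligase that forms succinate, was at 75.6, 72.9 and 89.1 scaled CPM in Flox and at 67.2, 64.5 and 67.5 in AdIGF1RKO, without overlap (difference -0.24 ± 0.10, SE, adjusted p = 0.998). Of 18 tested genes for mitochondrial carriers and other proteins of the outer and inner membranes, 14 were negative, beside 55.2% of all genes. Their median was -0.08 and 0 were called. Here too the direction turned, with 1 negative without Flox 3 (median 0.10), beside 49.5% of all genes. Without both muscle-rich libraries 4 were negative (median 0.03), beside 50.8%. There were 8 negative with the muscle covariate, beside 54.5% of all genes, and 8 with equal sums, beside 27.7%.

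Levels were compared between complexes per kilobase of transcript, for the 39 members whose principal transcripts agreed in length. In the mean of the 4 muscle-poor libraries the median was 1375 scaled CPM per kb in complex IV (9 of 10 genes), 701 in complex V (4 of 9), 242 in complex I (15 of 18), 159 in complex III (6 of 7) and 157 in complex II (4 of 4). Among these members complex IV was the highest and complex V the next in each of the 6 libraries. The median of complex III was above that of complex II in each of the 6 libraries. The gap was small in Flox 2 (153.1 against 153.0), and the ranges over the libraries overlapped. The order of the complexes depends on which subunits are members. Among the other nuclear subunits with a length, the median was 2167 in complex V (5 genes) and 1906 in complex III (2 genes). Both were above the 1375 of the complex IV members. It was 399 in complex I (15 genes) and 235 in complex IV (1 gene).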

How the data were processed

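Messenger RNA of 6 libraries was measured, 3 Flox and 3 AdIGF1RKO. The deposited values are called FPKM by the authors, but are a signal equal to whole reads times a constant per library and are not divided by gene length; 100.0% of them lay within 0.5 deposited units of a whole number of reads, where 1 read is worth 12.2 to 25.5 units. The submitters' processing notes name the build GRCm39, with aligner, counter and annotation not given in the sources used here. Median-ratio size factors (0.731 to 1.17) were applied to these reads. Genes with a mean of at least 1 scaled CPM (all 49 members; 1868 genes were left out) were tested on log2(scaled CPM + 1) with limma 3.58.1 in R 4.3.3. The scripts were tested on simulated data. 20 alternatives, edgeR 4.0.16, DESeq2 1.42.0 and each library left out among them, were run.

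Same-numbered libraries deviated together (correlations 0.35, 0.35 and 0.83), and the number was a block in an alternative fit but not in the main fit. The numbers come from the sample titles, and Flox 2 correlated better with AdIGF1RKO 1 (0.70). Per complex, values are given for the 4 members with the smallest p, the largest and smallest difference and the highest mean. Members, lists and alternatives were chosen with earlier results of these data known. Transcript lengths are from GENCODE M21, and promoters are from RefSeq on GRCm38.p6.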

Additional observations from a re-analysis of the deposited data

How the results depend on the processing

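Under all 20 alternatives 0 of the 49 members were called. The median differences of the members and of each complex moved from the main fit by less than the SD between libraries. That SD includes the spread from Flox 3, so it is a wide limit. Without Flox 3 the median changed sign for the members (0.02), complex I (0.03), complex III (0.02), complex V (0.06) and cytochrome c (0.18). Of the members, 28 changed sign without Flox 3, 16 with array quality weights, 9 with equal sums, 7 each without AdIGF1RKO 1 and without both muscle-rich libraries, and 2 with the muscle covariate. In the other 14 alternatives 0 did. Over all genes, 0 were called by limma and by edgeR (385 and 380 at an unadjusted p under 0.05) and 23 by DESeq2. Leaving out 1 library at a time gave 0 to 1 called gene, the 1 being Aldh1a7 without Flox 1. The replicate block called 0 genes, raised the number at an unadjusted p under 0.05 to 582, left the members' median at -0.19 and changed no other call. With 3 libraries a group, the members' standard errors of 0.11 to 0.69 limit what could be detected. Each member had at least 5047 reads in every library.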
